A study of Mus musculus with 8 samples.

Results

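Claudins are the membrane proteins that form the strands of the tight junction and set which ions and how much water cross an epithelium between its cells. Each nephron segment carries its own combination, so that the leaky proximal tubule, the cation-selective thick ascending limb and the tight collecting duct differ in claudins as well as in transporters. Others seal the capsule of the glomerulus or the endothelium.

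RNA-Seq read counts were examined for 10 claudin genes with known expression in a nephron segment or in endothelium, chosen by symbol: Cldn1, Cldn2, Cldn3, Cldn4, Cldn5, Cldn7, Cldn8, Cldn10, Cldn16 and Cldn19. They are 10 of 25 genes named Cldn and a number and of 22609 genes counted. The RNA was total RNA of the kidney cortex of untreated male C57BL6 mice, 4 labelled as 30 months old (aged) and 4 as 5 months old (young), with 1 library per mouse and no genetic change given for either group. The study asked which transcripts differ with age in this tissue. Counts assigned to genes ranged from 14820804 to 19821429 per library, so that 3 counts corresponded to 0.147 to 0.204 CPM, the count scaled to a common library total of 1e+06. CPM here is also corrected by the TMM method, which gives each library a single scaling factor and does not remove differences in composition.

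Aged mouse 1 stood apart. Its summed CPM of 7 urothelial markers was 87.5, against 2.03 to 9.11 in the other aged mice and 1.84 to 6.90 in young mice. Slc14a2, the urea transporter of the inner medulla, was at 89.2 CPM in aged mouse 1 and at 26.7 CPM in young mouse 1, and was between 0 and 0.327 CPM in the other 6 mice. The summed CPM of 13 proximal tubule markers was 16958 in aged mouse 1, 27922 to 33352 in the other aged mice and 30127 to 34666 in young mice, so the markers of the labelled cortex were abundant in every library. Values without 1 of these libraries are given where they moved the log2 fold change of one of the 10 claudins by over 1.5 times. In whole tissue, fewer cells of a type and less RNA per cell cannot be told apart.

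A gene was called changed when the adjusted p of edgeR's quasi-likelihood test (Benjamini-Hochberg over 13944 genes tested) was below 0.05 and the fold change above 1.5. All 10 claudins passed the filter on low counts. Cldn1 was called higher in aged mice and no other claudin of the 10 was called in either direction, so 1 of 10 was called against 2.06% of all genes tested (1.17% higher and 0.889% lower). With DESeq2 and limma-voom 1 of 10, again Cldn1, was called, against 6.26% and 1.96% of all genes. DESeq2 gave no adjusted p for Cldn4, which was counted as not called. At the adjusted p alone the count was also 1 of 10, against 2.95% of all genes. Before adjustment, Cldn1 was higher and Cldn2 lower at a p below 0.05, against 25.5% of all genes (13.4% higher and 12.1% lower). The values of both genes did not overlap between the groups, which was the case for 18.9% of all genes. Among the 10 log2 fold changes 5 were positive and 5 negative with a median of -0.09, where 45.9% of all genes were negative and their median was 0.03.

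**Figure D1:**
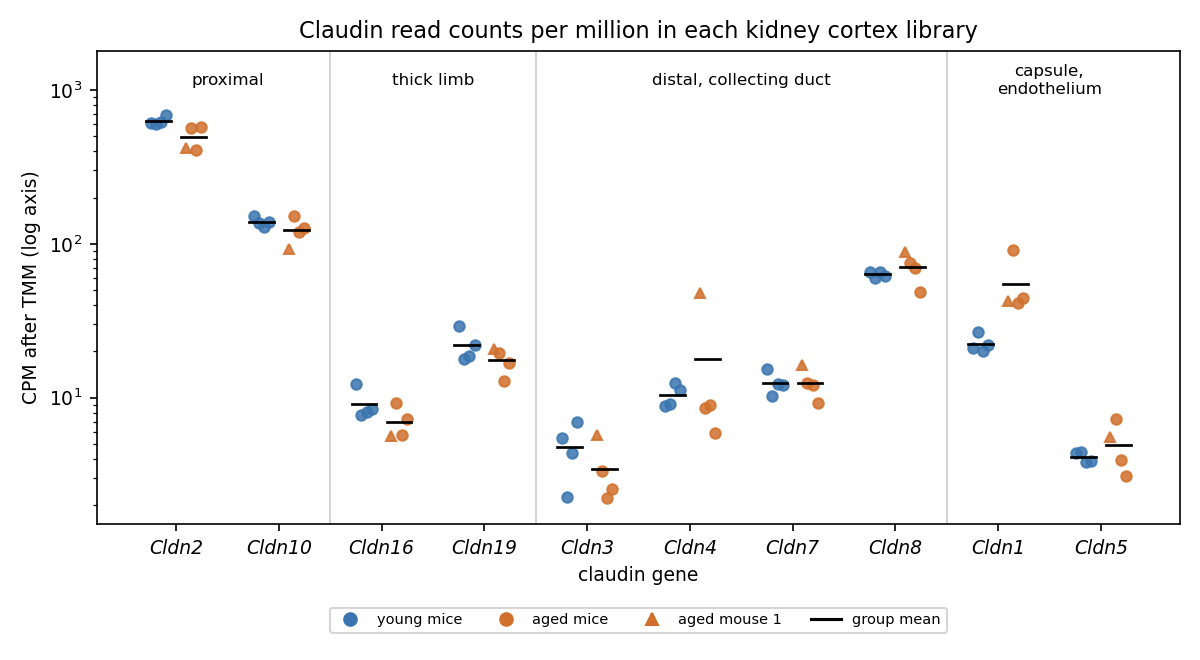
CPM of each claudin in each library on a log axis, young mice in blue and aged mice in orange, with aged mouse 1 as a triangle and the group mean as a line. All 4 aged mice lie above the young mice for Cldn1 and below them for Cldn2, and the high mean of Cldn4 in aged mice comes from aged mouse 1 at 48.0 CPM.

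Cldn2 forms a pore for cations and water in the proximal tubule and was the most abundant of the 10 per length of transcript. Its levels were 420, 567, 411 and 574 CPM in aged mice 1 to 4 and 610, 603, 617 and 693 CPM in young mice 1 to 4. Each aged mouse was below each young mouse. The mean was 493 ± 89.9 CPM (SD, n = 4) in aged and 631 ± 41.9 CPM (n = 4) in young mice. On the log2 scale this was a change of -0.36 (SE 0.14), which did not pass after adjustment (edgeR adjusted p = 0.150). The gene is at chrX:136335367-136345925 on the plus strand of mm9, the build of the files.

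Cldn10 encodes an anion-selective isoform of the proximal tubule and a cation-selective isoform of the thick limb, which start at different exons and were counted together. It was at 92.0, 152, 120 and 128 CPM in the aged and at 151, 138, 129 and 139 CPM in the young mice. The groups overlapped, with aged mouse 1 lowest and aged mouse 2 highest of all. The log2 fold change was -0.18 (SE 0.14, edgeR adjusted p = 0.429). It was -0.065 without aged mouse 1 and -0.30 without aged mouse 2, and neither passed.

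The proximal tubule markers had a median log2 fold change of -0.30. By edgeR 0 of 13 were called, with 1 higher and 4 lower at an unadjusted p below 0.05, by limma-voom 0, and by DESeq2 4, of which Ggt1, Slc22a6 and Slc9a3 were lower and Slc5a12 higher, where DESeq2 called 6.26% of all genes. Against the mean log2 CPM of these markers in the same library, Cldn2 differed between aged and young mice by -0.03 and Cldn10 by 0.14 (log2), with p = 0.943 and p = 0.343 by exact two-sided permutation tests. Adjusted over 11 such comparisons, these exact permutation p-values were 0.943 for Cldn2 and 0.629 for Cldn10. With the median over the markers in place of the mean, the difference was 0.37 for Cldn2 and 0.54 for Cldn10 (exact permutation, adjusted p = 0.314 for both). Cldn2 had 4.57, 3.73, 3.44 and 4.50 times the counts of Cldn10 in aged mice and 4.05, 4.39, 4.77 and 4.97 times in young mice. This ratio overlapped between the groups and differed by -0.17 on the log2 scale (exact permutation p = 0.229).

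Cldn16 and Cldn19 interact in the thick ascending limb, where they carry the paracellular reabsorption of calcium and magnesium, and inherited loss of either causes renal magnesium wasting. Cldn16 was at 5.65, 9.24, 5.72 and 7.25 CPM in aged and at 12.2, 7.77, 8.09 and 8.45 CPM in young mice. Cldn19 was at 20.9, 19.5, 12.9 and 16.8 CPM in aged and at 29.2, 18.0, 18.6 and 21.9 CPM in young mice. For both genes young mouse 1 was the highest of the 8 and the groups overlapped. The log2 fold changes were -0.39 (SE 0.21) for Cldn16 and -0.32 (SE 0.19) for Cldn19, and neither passed (edgeR adjusted p = 0.270 and 0.315). Without young mouse 1 they were -0.22 and -0.15, and for Cldn19 -0.20 without aged mouse 3. Without both aged mouse 1 and young mouse 1, Cldn16 was at -0.13.

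For each Cldn19 count there were 0.271, 0.473, 0.442 and 0.430 Cldn16 counts in the 4 aged mice, against 0.419, 0.432, 0.436 and 0.385 in the young. Aged mouse 1 had the lowest ratio and the other aged mice lay within 0.430 to 0.473. The ratio differed by -0.08 on the log2 scale over all 8 mice (exact permutation p = 0.943) and by 0.10 without aged mouse 1. Relative to the 6 thick limb markers, which had a median log2 fold change of -0.23 with 0 called by edgeR, limma-voom or DESeq2 (1 higher and 2 lower at an unadjusted edgeR p below 0.05), Cldn16 differed by -0.21 (p = 0.286), Cldn19 by -0.14 (p = 0.143) and Cldn10 by -0.02 (p = 0.914) by exact permutation tests. Adjusted over 11 such comparisons, these exact permutation p-values were 0.629, 0.629 and 0.943. With the median over the markers the differences were -0.45, -0.37 and -0.26, each with an adjusted p of 0.314 by exact permutation.

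In the distal nephron and collecting duct, Cldn3 is a sealing claudin, Cldn4 and Cldn8 interact and shape chloride passage, and Cldn7 is found at lateral membranes as well as at the junction. Cldn4 was at 48.0 CPM in aged mouse 1 and at 8.59, 9.03 and 5.88 CPM in aged mice 2 to 4, against 8.81, 9.15, 12.4 and 11.3 CPM in young mice. With all mice the log2 fold change was 0.79 (SE 0.62, edgeR adjusted p = 0.438). Without aged mouse 1 the sign turned, to -0.41 (SE 0.19, adjusted p = 0.208), and neither value passed.

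Other genes were also high in aged mouse 1. Krt18, a keratin of simple epithelia and a gene of the tubular injury list, was at 63.0 CPM in this mouse and between 7.85 and 14.1 CPM in the other 7. It was also the gene closest to Cldn4 in pattern among 135 candidates, with a root mean square difference of 0.23 between centred log2 CPM over the 8 libraries. Aqp2, the water channel of principal cells, was at 271 CPM in aged mouse 1 and between 79.9 and 138 CPM in the others. Of the same principal cell list, Aqp4 at 187 CPM and Gata3 at 53.4 CPM were also highest of all 8 in this mouse. Hsd11b2 at 47.8 CPM, Scnn1g at 27.1 CPM and Scnn1b at 31.3 CPM were lowest of all 8. Aqp3, Avpr2 and Fxyd4 were neither highest nor lowest there. The mean log2 CPM of the list in aged mouse 1 was 0.36 above the young mean. Whether the urothelial and medullary transcripts in this library bear on its Cldn4 level was not tested.

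Cldn8 was at 89.0, 74.7, 70.2 and 49.0 CPM in aged and at 66.0, 60.0, 65.8 and 62.3 CPM in young mice. The aged mice spread on both sides of the narrow young range, and the log2 fold change was 0.16 (SE 0.16, edgeR adjusted p = 0.550). It was 0.026 without aged mouse 1 and 0.30 without aged mouse 4 (edgeR adjusted p = 0.922 and 0.0983). Cldn7 was at 16.4, 12.4, 12.1 and 9.21 CPM in aged and at 15.5, 10.3, 12.3 and 12.05 CPM in young mice, with means of 12.53 and 12.54 CPM. Cldn3 was low, at 5.70, 3.32, 2.24 and 2.56 CPM in aged and at 5.49, 2.27, 4.35 and 6.97 CPM in young mice. Its log2 fold change of -0.46 (SE 0.39) was close to its error (edgeR adjusted p = 0.476). It ranged from -0.82 without aged mouse 1 to -0.22 without young mouse 4 (edgeR adjusted p = 0.185 and 0.793), with -0.30 without aged mouse 3 and -0.69 without young mouse 2. The groups overlapped for Cldn8, Cldn7 and Cldn3.

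Relative to 9 markers of principal cells, of which 0 were called by edgeR, limma-voom or DESeq2 (1 lower at an unadjusted edgeR p below 0.05), the differences were -0.34 for Cldn3, 0.33 for Cldn4, 0.08 for Cldn7 and 0.22 for Cldn8 (log2), with exact permutation p-values of 0.343, 0.800, 0.457 and 0.200. Cldn4 had 0.539 counts per Cldn8 count in aged mouse 1, 0.115 to 0.129 in the other aged mice and 0.134 to 0.189 in young mice. Over all mice the log2 ratio differed by 0.11 (exact permutation p = 1). Without aged mouse 1 it differed by -0.42, and the 3 other aged mice lay below all 4 young mice.

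Cldn1 seals the parietal epithelium that lines the capsule of the glomerulus. Its levels were 42.8, 91.5, 41.5 and 44.2 CPM in aged mice 1 to 4 and 21.1, 26.9, 20.1 and 21.9 CPM in young mice 1 to 4. The lowest aged mouse was above the highest young mouse, aged mouse 2 was far above the other aged mice, and 3 of the 4 aged mice lay between 41.5 and 44.2 CPM. The mean was 55.0 ± 24.3 CPM (SD, n = 4) in aged and 22.5 ± 3.01 CPM (n = 4) in young mice, 2.45 times as high. The log2 fold change was 1.29 (SE 0.26, edgeR adjusted p = 0.0405), which was rank 272 of 13944 by p.

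The call was near the threshold. Without aged mouse 2 the log2 fold change was 0.93 with an adjusted p of 0.0282 (edgeR). Without aged mouse 3 the adjusted p was 0.0575, and without young mouse 1, 2, 3 or 4 it was 0.125, 0.0935, 0.114 or 0.130 (edgeR). The call was thus lost in 5 of 8 such fits. In the same order, these 5 fits called 115, 8, 35, 14 and 12 genes in all, of 14106 to 14144 tested. With all mice 287 of 13944 were called. The log2 fold change of Cldn1 in the 5 fits was 1.40, 1.25, 1.39, 1.24 and 1.27. Without both aged mouse 1 and young mouse 1, a choice made after seeing the data, the log2 fold change was 1.36 with an adjusted p of 0.0842 (edgeR). That fit called 51 of 13929 genes and no claudin of the 10. The direction held in each of these fits.

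Podocytes lie beside the capsule cells, and the level of Cldn1 was set against 8 podocyte markers. These had a median log2 fold change of 0.06. By edgeR 0 of 8 were called, with 1 higher at an unadjusted p below 0.05, and by limma-voom 0. DESeq2, which called 6.26% of all genes, called 1, the cell cycle inhibitor Cdkn1c, which was higher. The log2 CPM of Cldn1 minus the mean of the markers was -0.16, 0.70, -0.13 and 0.70 in aged mice and -0.94, -0.74, -1.03 and -0.68 in young mice. Each aged mouse was above each young mouse, and the difference of 1.13 corresponded to 2.18-fold. The 8 genes were chosen as podocyte markers, and no list of capsule cell markers was used. The exact permutation p was 0.0286, the smallest that 4 against 4 mice allow. Adjusted over the 11 comparisons of a claudin with a marker list, this exact permutation p was 0.314. Of the 11, 0 passed after adjustment and 1 had an unadjusted p below 0.05, the one given here. A single comparison at this smallest p could not pass the adjustment over 11, so the adjusted value cannot decide.

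Cldn5, the main claudin of endothelium, was low in this tissue, at 5.55, 7.22, 3.96 and 3.11 CPM in aged and at 4.38, 4.44, 3.81 and 3.90 CPM in young mice. The aged range enclosed the young range and the log2 fold change was 0.26 (SE 0.26, edgeR adjusted p = 0.543). It was 0.025 without aged mouse 2 and 0.43 without aged mouse 4, and neither passed. Relative to 11 endothelial markers, with a median of 0.06 and 0 called by edgeR, limma-voom or DESeq2 (2 lower at an unadjusted edgeR p below 0.05), the difference was 0.17 (exact permutation p = 0.514). Its closest gene in pattern was Cdh5, the cadherin of endothelial junctions (root mean square difference 0.18, log2).

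**Figure D2:**
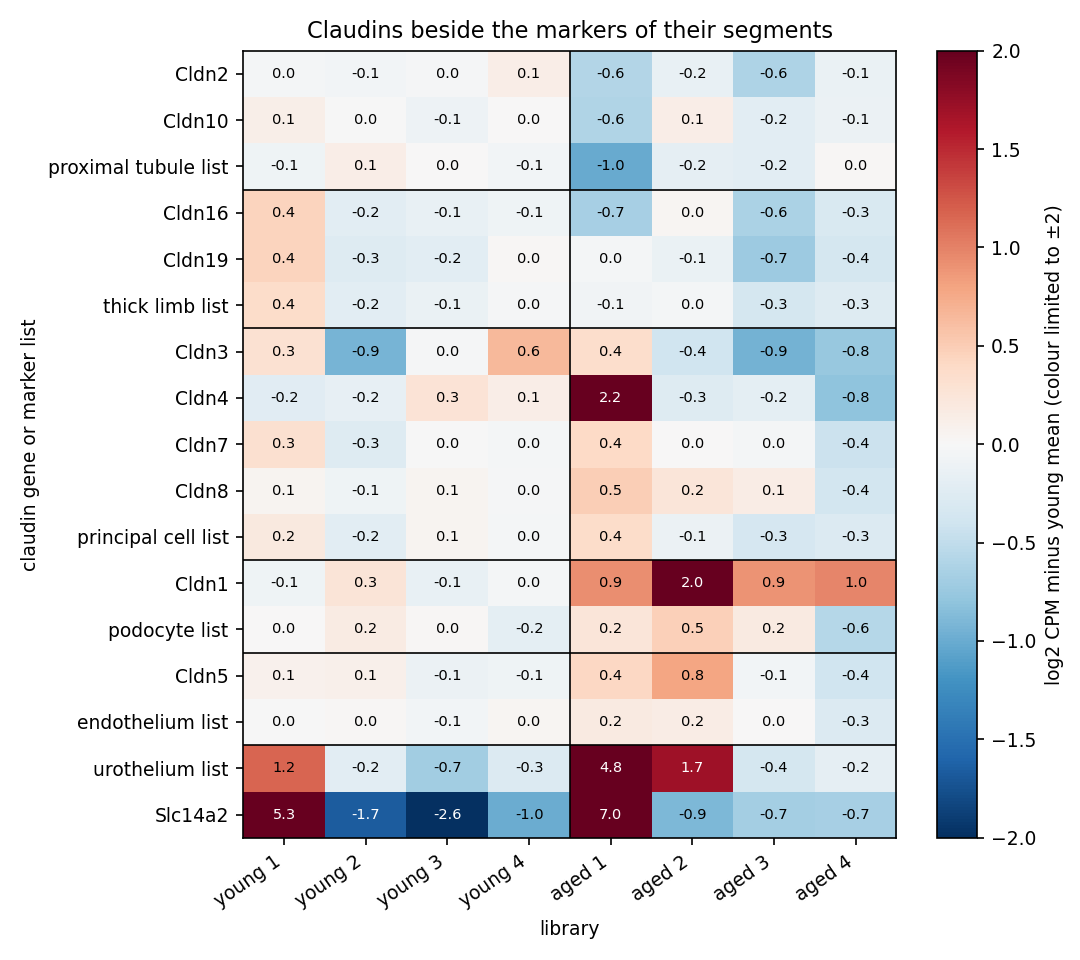
Log2 CPM of each claudin and mean log2 CPM of the marker list it was set against, each minus its young mean, by library. The colour is limited to 2 in either direction, and the list beside Cldn1 is of podocytes. Cldn1 is high in all 4 aged mice, and the podocyte list is at 0.24, 0.48, 0.18 and -0.57 in aged mice 1 to 4. Aged mouse 1 is high for Cldn4, the urothelium list and Slc14a2 and low for the proximal tubule list.

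Cldn1 and Cldn16 are neighbours on chromosome 16, and Cldn3 and Cldn4 on chromosome 5. In mm9, Cldn1 is at chr16:26356728-26371927 on the minus strand with 4 exons and Cldn16 at chr16:26463221-26482851 on the plus strand, 91.3 kb apart with 0 other genes starting between them. Cldn4 (chr5:135420996-135422804, minus) and Cldn3 (chr5:135462084-135463342, plus) are 39.3 kb apart and each has 1 exon in its longest transcript, again with 0 genes starting between them. The remaining genes are Cldn10 (chr14:119187093-119274711, plus), Cldn19 (chr4:118928019-118935043, plus), Cldn7 (chr11:69778281-69781387, plus), Cldn8 (chr16:88561073-88563428, minus) and Cldn5 (chr16:18776940-18778353, plus), and no gene of the 10 overlapped another gene on its strand. The log2 fold changes within the pairs were 1.29 and -0.39 for Cldn1 and Cldn16, and 0.79 and -0.46 for Cldn4 and Cldn3. Without aged mouse 1 the latter were -0.41 and -0.82, so the opposite signs of Cldn4 and Cldn3 rested on that library.

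The 250 bases before the annotated start are printed for Cldn1, the called gene, for Cldn16, its neighbour, and for Cldn4, the member that rested on 1 library. They were taken from RefSeq on GRCm38.p6, a later build than that of the files. Capitals mark the GC box GGGCGG on either strand in the windows of Cldn1 (chr16:26371840-26372089, minus) and Cldn16 (chr16:26462885-26463134, plus), and the E-box CAGGTG, a sequence that Snail repressors are known to bind, in that of Cldn4 (chr5:134946935-134947184, minus), where it reads CACCTG.
Cldn1: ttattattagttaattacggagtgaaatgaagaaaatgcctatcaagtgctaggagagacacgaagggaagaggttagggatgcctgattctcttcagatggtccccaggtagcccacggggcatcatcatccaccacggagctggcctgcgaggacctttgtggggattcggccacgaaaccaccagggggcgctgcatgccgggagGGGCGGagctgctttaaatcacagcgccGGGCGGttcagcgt
Cldn16: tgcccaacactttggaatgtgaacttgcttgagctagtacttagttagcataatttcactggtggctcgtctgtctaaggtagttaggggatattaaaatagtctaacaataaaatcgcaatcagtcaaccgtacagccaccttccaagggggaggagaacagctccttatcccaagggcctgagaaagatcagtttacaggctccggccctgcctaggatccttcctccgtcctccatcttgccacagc
Cldn4: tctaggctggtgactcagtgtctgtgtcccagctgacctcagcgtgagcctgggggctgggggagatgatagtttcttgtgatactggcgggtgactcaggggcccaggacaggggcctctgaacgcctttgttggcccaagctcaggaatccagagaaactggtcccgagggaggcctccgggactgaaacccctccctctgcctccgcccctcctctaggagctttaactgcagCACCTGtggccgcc

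Windows were found for 9 of the 10 claudins, 12 in all, with Cldn8 not among them. The GC box was in 8 of the 12 windows, of 7 claudins, and in 32.7% of 32851 promoter windows of the same length. The 2 windows of Cldn19 overlap and hold the same 2 boxes, so both windows count among the 8. Cldn1 had it at 42 and 14 bases before its start, and the Cldn16 window did not hold these letters. Cldn4 had it at 44 bases before its start, in lower case in the sequence printed above. The E-box was in the windows of Cldn4 and Cldn7 and in 17.2% of all windows. A TATA box (TATAAA) was in the Cldn2 window alone among the 12 and in 12.4% of all windows. Both strands were searched, and a GC box can share an end base with an E-box.

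Divided by exon length (CPM per kb), the order in young mice was Cldn2, Cldn10, Cldn8, Cldn16, Cldn1, Cldn7, Cldn4, Cldn19, Cldn3 and Cldn5. Cldn2 was at 190 ± 12.6, Cldn10 at 53.0 ± 3.36 and Cldn8 at 26.9 ± 1.23 CPM per kb (SD, n = 4), and these 3 did not overlap with each other or with the rest. The following levels were closer together, from 7.78 ± 1.76 for Cldn16 over 6.92 ± 0.926 for Cldn1 and 6.44 ± 1.10 for Cldn7 to 5.76 ± 0.959 for Cldn4 and 5.14 ± 1.20 for Cldn19, and each neighbour lay within 1 SD of the next. Cldn3 (3.79 ± 1.57) and Cldn5 (2.92 ± 0.229) were lowest, and their difference was smaller than the SD of Cldn3. In aged mice Cldn1 was at 16.9 ± 7.49 CPM per kb and ranked behind Cldn2 (148 ± 27.0), Cldn10 (46.7 ± 9.42) and Cldn8 (30.0 ± 7.04). Lengths came from the GENCODE annotation of the same build, which may differ from the gene models of the counting.

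Of the summed level per length of the 10 genes, Cldn2 made up 61.5 ± 2.07% in young and 53.9 ± 6.04% in aged mice. Cldn1 made up 2.05% to 2.82% in the young mice and 4.90% to 8.81% in the aged mice. Cldn10 was at 17.2% and 17.02%, and Cldn8 at 8.75% and 11.1%, in young and aged mice. Cldn4 was at 1.87 ± 0.318% in young and 3.69 ± 4.22% in aged mice, of which aged mouse 1 had 9.99%. A share of a fixed sum falls when another share rises, so these values are a description of the make-up.

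**Figure D3:**
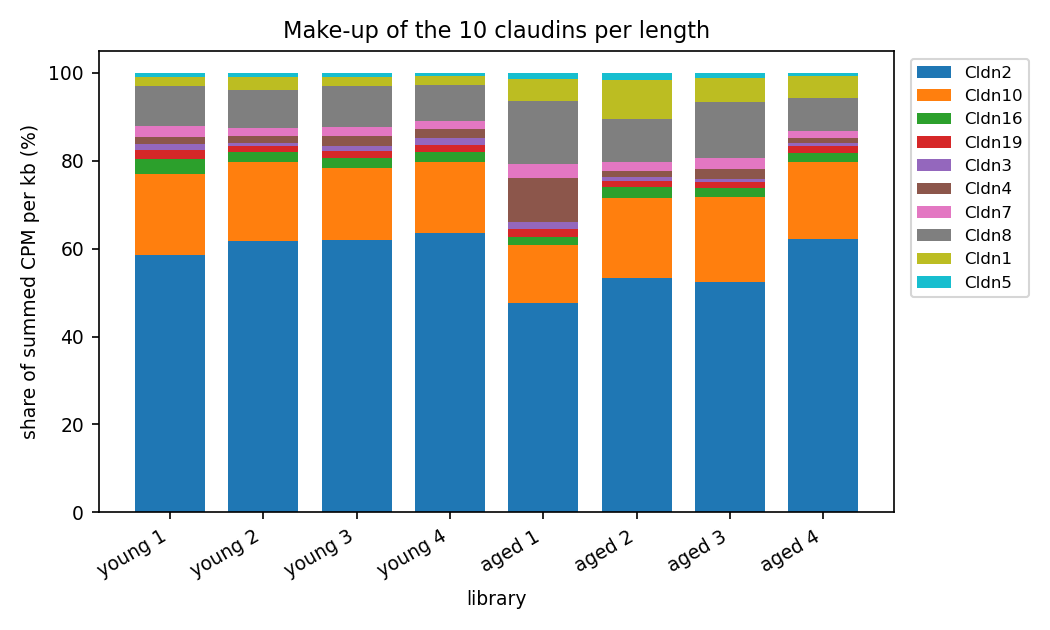
Share of each claudin in the summed CPM per kb of the 10 genes, as stacked bars from 0 to 100% for each library. Cldn2 takes 58.7% to 63.6% in young and 47.6% to 62.1% in aged mice, and the Cldn1 segment is larger in all aged mice.

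Of the 15 other claudins 4 passed the filter and 0 were called by edgeR, limma-voom or DESeq2, with 1 lower at an unadjusted edgeR p below 0.05. Cldn12, which is found in the proximal tubule, was high, at 132 ± 17.5 CPM in aged and 117 ± 13.3 CPM in the young group (SD, n = 4), and its log2 fold change was 0.17 (edgeR adjusted p = 0.384). Cldn15 was at 10.52 ± 3.45 and 10.4 ± 1.78 CPM (adjusted p = 0.974), and Cldn6 was at 0.572 ± 0.379 and 0.774 ± 0.294 CPM (adjusted p = 0.611). Cldn18, known from stomach and lung, was at 0, 0.0650, 0.160 and 0.708 CPM in aged and at 1.29, 1.11, 1.56 and 0.532 CPM in young mice, from 17 and 74 counts in total. Only aged mouse 4 was above a young mouse, and the log2 fold change of -2.22 (SE 0.77) had an adjusted p of 0.123 (edgeR), which became 0.0220 without aged mouse 4.

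The other 11 claudins were at or near the floor in most libraries. Cldn11, the claudin of myelin and of the testis, had 255 counts in aged mouse 1 and 0 to 2 counts in each of the 7 other libraries. Cldn23 had 19 counts in aged mouse 1 and 0 to 2 in the others. Both were seen in the library with the urothelial and medullary transcripts, and their part in it was not tested.

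**Figure D4:**
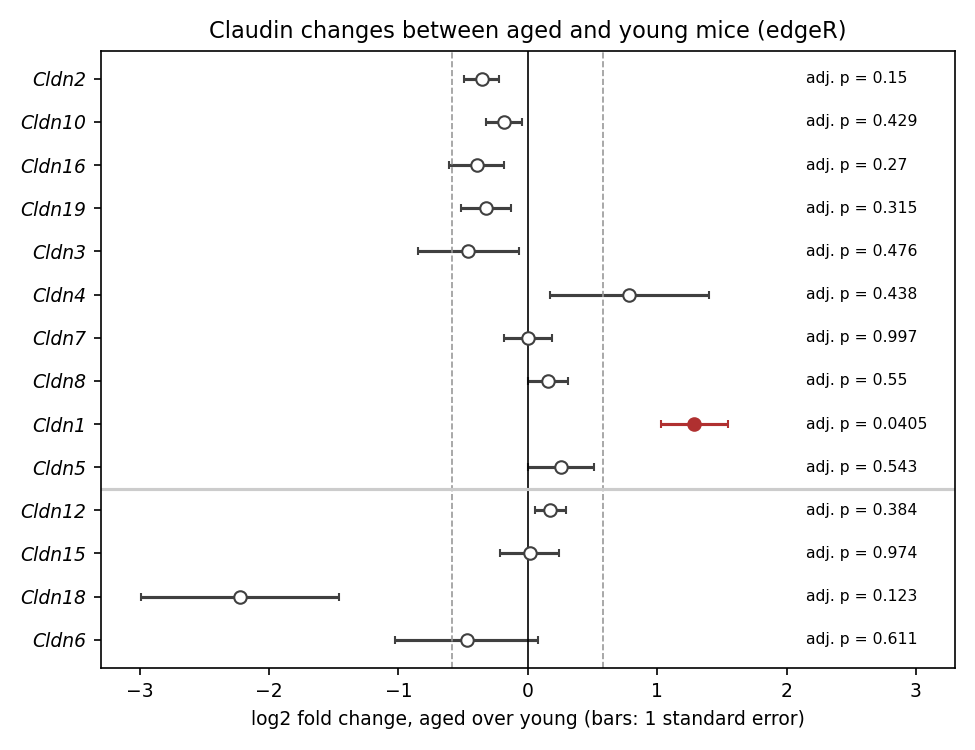
Log2 fold change of each tested claudin, aged over young, with 1 standard error and the adjusted p of edgeR, the 10 claudins above the grey line and 4 others below it. Dashed lines mark a fold change of 1.5, and Cldn1 at 1.29 is the only filled point.

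The partners of claudins at the junction were examined as a list of 26 genes, all of which passed the filter. By edgeR, limma-voom or DESeq2 0 were called, and the median log2 fold change was 0.04. At an unadjusted edgeR p below 0.05, 4 were higher and 4 lower, against 13.4% and 12.1% of all genes. Mpp5, a scaffold of the apical polarity complex, was at 119, 135, 134 and 150 CPM in aged and at 192, 215, 177 and 171 CPM in young mice. The groups did not overlap, and its log2 fold change of -0.49 (SE 0.10) had an adjusted p of 0.0456 (edgeR) but a fold change below 1.5. Ocln, the occludin of the strand, was at 37.0 ± 9.33 CPM in aged and 38.5 ± 2.28 CPM in young mice (edgeR adjusted p = 0.842). Tjp1, the scaffold ZO-1 that binds the tails of claudins, was at 173 ± 32.8 and 141 ± 4.99 CPM (edgeR adjusted p = 0.191).

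Jam3, a junctional adhesion molecule, was the gene closest in pattern to Cldn1, although the root mean square difference of 0.42 (log2) was the largest of the 10 nearest pairs. It was at 26.2, 39.9, 27.7 and 27.3 CPM in aged and at 20.5, 20.4, 23.1 and 20.1 CPM in young mice. The groups did not overlap and aged mouse 2 was again the highest, and the log2 fold change was 0.53 (SE 0.14, edgeR adjusted p = 0.0738). For the thick limb gene Cldn19 the closest was Casr, the calcium-sensing receptor (0.12), and for Cldn16 it was Cldn10 (0.19). The closest to Cldn2 was Pard6b (0.16), to Cldn10 Marveld3 (0.15), to Cldn3 Cd24a (0.31), to Cldn7 Cldn15 (0.11) and to Cldn8 Plvap (0.09). These likenesses are over 8 libraries that share 2 age groups and are a description only.

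Of 12 regulators of claudins, 0 passed the adjusted threshold of edgeR, and the median log2 fold change was -0.17. At an unadjusted p below 0.05, 2 were lower, against 12.1% of all genes. By limma-voom 0 were called and by DESeq2 2, Prss8 and Pth1r, both lower, where DESeq2 called 6.26% of all genes. Prss8, a membrane serine protease of the distal nephron, had the smallest p. It was at 151, 203, 205 and 276 CPM in aged and at 312, 294, 324 and 357 CPM in young mice, without overlap (log2 fold change -0.62, SE 0.17, edgeR adjusted p = 0.0722). The receptor gene Pth1r, through which parathyroid hormone acts on the tubule, was at 361 ± 107 CPM in aged and 584 ± 19.9 CPM in young mice (edgeR adjusted p = 0.0842). Casr was at 102 ± 20.03 and 128 ± 16.3 CPM (adjusted p = 0.206). The repressors Snai1 and Snai2 were below 5 CPM in every library, with adjusted p-values of 0.937 and 0.377.

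**Figure D5:**
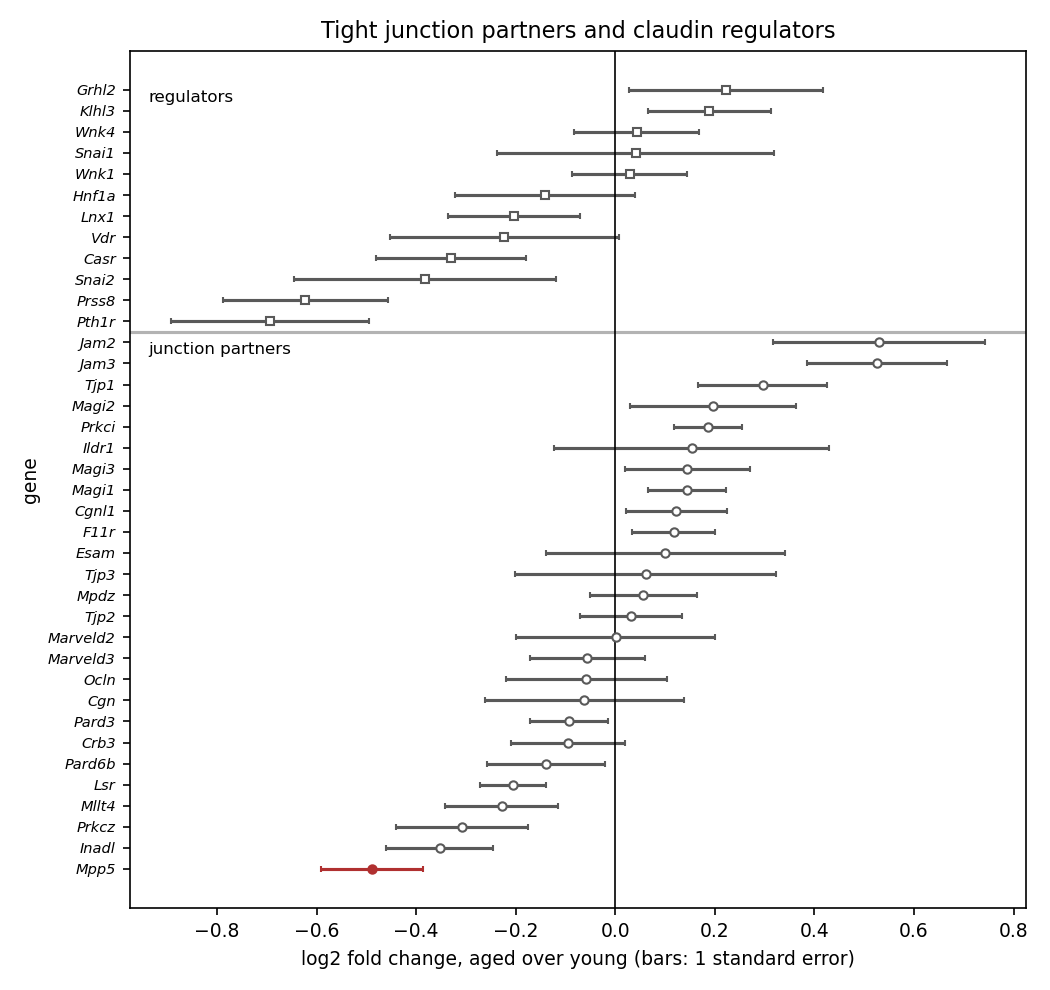
Log2 fold change, aged over young, of 26 junction partners (circles) and 12 claudin regulators (squares), with 1 standard error. Mpp5 at -0.49 is the only filled point, which marks an adjusted p below 0.05.

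Of the other marker lists, the leukocyte list held the only called gene, Csf1r, the receptor of macrophage growth factor, at 31.0 ± 8.38 CPM in aged and 62.0 ± 13.9 CPM in young mice (log2 fold change -1.004, edgeR adjusted p = 0.0472). In the lists that follow, the smallest p belonged to Ggt1 (proximal tubule, log2 fold change -0.91), Trpv5 (distal convoluted tubule, -0.91), Scnn1b (principal cells, -0.26), Atp6v0d2 (intercalated cells, -0.39), Cdkn1c (podocytes, 0.81), Ehd3 (endothelium, -0.28), Col3a1 (fibroblasts, -1.24) and Vcam1 (tubular injury, 0.59), and 0 passed in edgeR. By DESeq2, which called 6.26% of all genes, further calls were Trpv5, Calb1, Col1a1 and Col3a1, lower, and Vcam1, higher. By limma-voom there were 0 beside Csf1r. The medians over tested genes were 0.49 for 9 leukocyte, 0.48 for 8 injury, 0.14 for 6 fibroblast, -0.18 for 7 intercalated, -0.49 for 7 distal convoluted and -0.08 for 9 principal cell genes. The summed CPM of the injury list was 614 to 1185 in aged and 664 to 837 in young mice. Its mean log2 CPM minus the young mean was 1.33, 0.29, 0.20 and 0.07 in aged mice 1 to 4. In young mice this value was -0.31 to 0.43. The part of the injury list in the level of Cldn1 was not tested.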

How the data were processed

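RNA-Seq was performed on the kidney cortex of 4 aged and 4 young mice. Stranded libraries were made after removal of ribosomal RNA and sequenced as 100 bp paired ends. The authors aligned them to mm9 and deposited raw read counts per gene. The submitters' processing notes name CASAVA 1.8.2, TopHat2, SAMtools and HTSeq. Reads assigned to no gene (19.95% to 29.9%), aligned at several places (34.3% to 39.1%) or ambiguous (0.231% to 0.346%) were left out. The joint table equalled the single tables (0 differing values).

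Counts were tested with edgeR 4.0.16 in R 4.3.3 (filterByExpr with a minimum count of 10, TMM, quasi-likelihood, Benjamini-Hochberg). Log2 CPM for ratios used a prior count of 2, and the ratios were tested by exact permutation of the 8 mice, 70 orders. The fit was tested on simulated data. DESeq2 1.42.0, limma 3.58.1, other scalings, filters, a replicate block and leaving out each mouse were alternatives. All coding transcripts of the 10 claudins were compared with BLAST 2.17.0. Of the 10, 0 matched a coding transcript of another gene at 98% identity or above over 100 nt.

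The claudins and the gene lists were chosen with earlier results of these data known, and the urothelial list and Slc14a2 after its values were seen. Cldn11, Cldn23, Krt18, Aqp2, Hsd11b2, Scnn1g, Ocln, Tjp1, Pth1r, Snai1, Snai2 and genes called by DESeq2 alone were named after their values were seen. So were Aqp3, Aqp4, Avpr2, Fxyd4 and Gata3. The other named genes are all 10 claudins and other claudins that pass the filter. They also include list genes with an adjusted p below 0.05 or otherwise the smallest p, and the list gene closest in pattern to each claudin. One list gene named by this rule is not reported here. Labels give 1 mouse per library and no batch.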

Additional observations from a re-analysis of the deposited data

Results flagged for a closer look

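In 9 of 88 groups of 4 mice, 1 mouse lay far from the other 3, with a gap to the nearest mouse that as a share of the group's range (log2 scale) was above Dixon's 95% critical value, and 4.4 such groups are given by chance. Aged mouse 2 was highest for Cldn1 (gap 0.920 of the range), and without it the Cldn1 call was kept. Young mouse 4 was highest for Cldn2 (0.835).

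Aged mouse 1 was the far mouse in 5 of the 9. It was highest for Cldn11 (0.913) and for the ratio of Cldn4 to Cldn8 (0.926). It was lowest for the ratio of Cldn16 to Cldn19 (0.832), for Cldn10 relative to the thick limb markers (0.939) and for the mean of the distal convoluted tubule list (0.928).

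The 2 remaining cases were list means. Young mouse 1 was highest for the tight junction list (0.854), and aged mouse 2 was highest for the fibroblast list (0.8292).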

How the results depend on the processing

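The count of genes called, 287 (56.8% higher in aged mice), was 488 (75.4% higher) with library sizes alone, where the median over all genes went from 0.03 to 0.14 (log2), and 873 with DESeq2. It was 297 (65.3% higher) with upper-quartile scaling and 273 (45.8% higher) with limma-voom. Leaving out 1 mouse gave 8 genes without young mouse 1 to 733 without aged mouse 4, and 0 to 1 of the 10 claudins. Without both aged mouse 1 and young mouse 1, chosen after seeing the data, 51 genes and 0 claudins were called. The cause was not tested. With all mice, Cldn1 was called under all 9 other scalings, filters, tools and blocks (adjusted p 1.49e-04 with DESeq2 to 0.0464 with limma-voom).

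The labels do not say whether the replicate numbers pair the mice. The correlations of deviations were 0.21, 0.04, 0.20 and -0.03 for numbers 1 to 4. Aged mice 1, 2 and 3 each matched the young mouse of the same number best, and aged mouse 4 matched young mouse 2 best. With the replicate block 201 genes and 1 claudin were called, and Cldn1 was at 1.21 (adjusted p = 0.0359).

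Signs turned for values near 0. Cldn7 was at -0.0024 with DESeq2 size factors, -0.0021 with DESeq2, -4.89e-04 with limma-voom, -0.0080 without a filter, -0.017 with the block, -0.038 without both mice 1 and -0.15 to 0.12 without single mice (also -0.079, -0.0066 and -0.016 without young mice 2, 3 and 4). Cldn15 was at -0.0068 with limma-voom, -0.025 with the block, -0.14 without both mice 1, and -0.23 (aged mouse 1) to 0.15 without single mice, with -0.089 without young mouse 2.
Cldn4 was at -0.41 without aged mouse 1, up to 1.08 without other single mice, and -0.48 without both mice 1. With all mice it was 0.30 with limma-voom and 0.21 with the block. Relative to principal cell markers these values were -0.17, 0.62 and -0.31, and for its ratio to Cldn8 they were -0.42, 0.32 and -0.51. The ratio of Cldn16 to Cldn19 was at 0.10 without aged mouse 1 or both mice 1, and down to -0.16 without other single mice. Cldn10 relative to thick limb markers was at 0.14 without aged mouse 1, -0.11 to 0.041 without other single mice (0.041 without young mouse 2) and 0.060 without both mice 1. Cldn2 relative to proximal markers was at 0.37 with the list median and at -0.18 to 0.098 without single mice (0.098, 0.011 and 0.034 without aged mouse 3, aged mouse 4 and young mouse 4). Without aged mouse 4, Cldn18 was called at -3.80.

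With the longest transcript as length, young levels were 207 (Cldn2), 65.4 (Cldn10) and 9.39 (Cldn7) CPM per kb, which placed Cldn7 ahead of Cldn16. Of the ratios, 0 passed after adjustment with any single mouse left out, where a lone ratio at the smallest possible p could not pass. Paired, 4 mice cannot reach a p below 0.125. Genes of few counts, such as Cldn18 and Cldn6, and the 11 claudins that were not tested are limited by depth.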
